A study of Mus musculus with 73 samples.

Results

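Effector genes of alternative macrophage activation were followed across single lung macrophages of 1 mouse. The set holds 10 genes, Arg1, Chil3, Chil4, Retnla, Mrc1, Mgl2, Clec10a, Ccl17, Ccl24 and Pdcd1lg2, out of 23994 gene rows, and all 10 symbols were present. They were picked by name and not by a cutoff on their values, though earlier results of these data were known. They were read in all 73 cells. Chil3 was detected in 48 cells and Mrc1 in 32, each other member in 9 cells or fewer, and Retnla in 0.

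Alternative activation is the state that macrophages take up under the type 2 cytokines IL-4 and IL-13, which signal through receptors containing Il4ra to the transcription factor Stat6. The best known mouse effectors are arginase, secreted chitinase-like and resistin-like proteins, C-type lectin receptors that bind sugars, and chemokines that draw type 2 lymphocytes and eosinophils. Several of these genes also have levels that are not tied to type 2 cytokines. Alveolar macrophages, the phagocytes of the air spaces, carry Chil3 and Mrc1 in the resting lung, and Mgl2 and Clec10a also mark subsets of dendritic cells.

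The cells came from a B6 mouse of 10 weeks carrying the Csf1r-GFP reporter, in which regulatory sequence of Csf1r, a receptor gene of the monocyte and macrophage lineage, drives green fluorescent protein. The left lung had been removed 7 days earlier, and cells from the remaining right lobes were sorted as macrophages on CD45, CSF1R-GFP and F4/80, with Ly6G named in the label without a sign. They were captured singly on a microfluidic chip (Fluidigm C1), and polyadenylated RNA was amplified with SMARTer and sequenced. All cells form 1 group from 1 animal and unoperated lung is not analysed here, so the values describe cells of the regrowing lung, and no test is given, since cells of 1 animal do not replicate a condition.

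Levels are FPKM, fragments scaled to transcript length and library size, and a gene is called detected in a cell at FPKM of 1 or more. Cells held 347004 to 3486052 estimated mouse fragments (median 1408853) and 1044 to 3745 detected genes. Clustering gave 4 clusters. The members were left out of it, as were the other genes of the function lists, except those that are also cell type markers, such as Pparg and Trem2. An alveolar-macrophage-like cluster of 12 cells was led by 1100001G20Rik, Cd9, Ear2, Plet1 and Atp6v0d2, and an interstitial-macrophage-like cluster of 6 by the complement genes C1qb, C1qa and C1qc. A cluster of 5 cells was led by H2-Aa, Stmn1 and H2-Ab1, that is, by class II and cell-cycle genes. It stayed unnamed and is called the class II cluster. Its cells held 1 to 8 of 14 dendritic cell markers, a list that includes class II genes, with a median of 5. Cell 37 held 1 of these and 10 of 10 classical monocyte markers, so the cluster was mixed. Flt3 and Zbtb46, defining genes of dendritic cells, were detected in 0 of the 5 cells, but were also nearly absent from the other cells. The largest cluster, of 50 cells, was led by Ifitm3, Plac8 and Ly6c2 and is called classical-monocyte-like. This cluster was mixed, since 40 of its cells held at least 7 of 10 classical monocyte markers and 10 held fewer. Cells 27, 38, 41, 57 and 93, all among the latter, held 8 to 10 of 10 non-classical monocyte markers. Of the sort genes, Csf1r was found in 65 of 73 cells, Ptprc (CD45) in 69 and Emr1 (F4/80) in 41.

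The members fell into a common pair and a rare remainder. Chil3 was detected in 65.8% of cells (exact 95% interval 53.7 to 76.5; intervals cover counting error only) and Mrc1 in 43.8% (32.2 to 55.9). Clec10a was found in 9 cells (12.3%, 5.80 to 22.1), Mgl2 in 8 (10.96%, 4.85 to 20.5) and Arg1 in 5 (6.85%, 2.26 to 15.3). Ccl24 was found in 4 cells (5.48%, 1.51 to 13.4), Ccl17 and Chil4 in 3 each (4.11%, 0.856 to 11.5) and Pdcd1lg2 in 2 (2.74%, 0.334 to 9.55). The intervals of Chil3 and Mrc1 overlap each other narrowly, those of the 7 rarer genes that were detected overlap one another, and both common genes lie above all of these. A gene such as Hprt, used by all cells, was itself detected in 38 of 73 cells, so an undetected gene may be present at a low level.

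**Figure D1:**
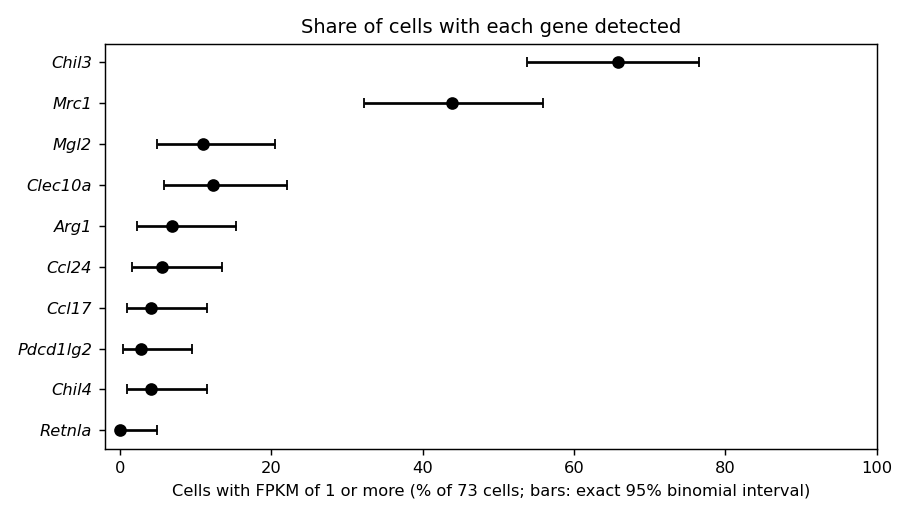
Share of the 73 cells in which each gene reached FPKM of 1 or more, in percent (points), with exact 95% binomial intervals (bars). Chil3 at 65.8% and Mrc1 at 43.8% stand above the other genes, which lie between 0 and 12.3%.

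Per cell, 59 of 73 cells held at least 1 member (80.8%, 69.9 to 89.1). Exactly 1 member was found in 26 cells, 2 in 20, 3 in 8 and 4 in 3, and 14 cells had none. The highest numbers were 7 members in cell 42, of the class II cluster, and 5 in cell 63, of the classical-monocyte-like cluster. All 14 cells without a member were classical-monocyte-like. The number of members followed the number of genes detected in a cell (Spearman's rho 0.48 over 73 cells of 1 animal, a description) more than the mouse fragments (rho 0.29). Cell 42 ranked 30 in depth and 28 in genes detected, with 1635037 fragments and 2475 genes.

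**Figure D2:**
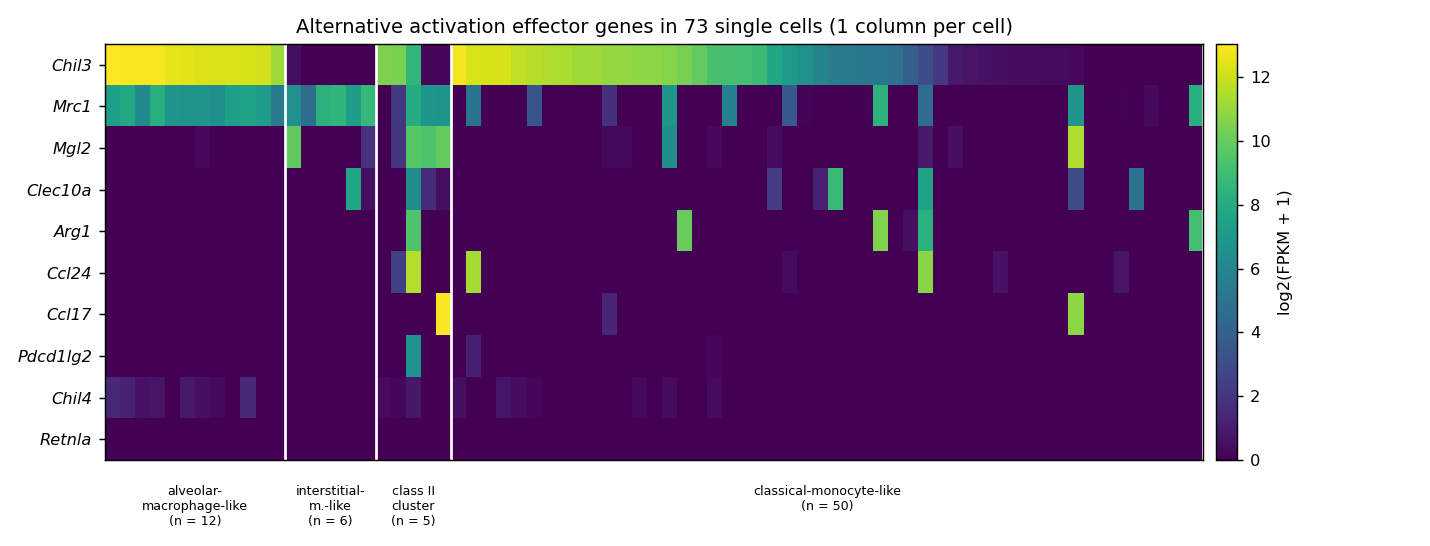
Levels of the 10 genes (rows) in each of 73 cells (columns) as log2(FPKM + 1), with cells grouped by cluster and ordered by Chil3 within each. Chil3 fills all 12 alveolar-macrophage-like cells, as well as 33 of 50 classical-monocyte-like cells, Mrc1 fills the alveolar- and interstitial-macrophage-like cells, and the remaining genes appear as single cells.

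Chil3 encodes Ym1, a secreted chitinase-like protein without enzyme activity that is stored and released by mouse macrophages. In mm10 it lies at chr3:106147554-106167564 on the minus strand, and Chil4, its near copy encoding Ym2, at chr3:106201490-106219507 on the same strand, 33925 bases away. Retnla, which encodes the resistin-like protein RELMα, lies at chr16:48842551-48844461 on the plus strand. The bases upstream of their starts are shown because the 3 secreted products are classic Stat6 targets that behaved differently here, together with those of Ccl17, whose upstream window holds matches to both motifs searched. They were taken from RefSeq (GRCm38.p6, the same assembly as mm10), in which 7 of the 10 members had an entry, and end before the first annotated transcript start. STAT factors bind TTCNNNGAA and Stat6 also binds TTCNNNNGAA, and capitals mark matches to these letters. Chil3 is shown from chr3:106167565-106167814 (minus strand), Chil4 from chr3:106219508-106219729 (minus), Retnla from chr16:48842359-48842550 (plus) and Ccl17 from chr8:94810203-94810452 (plus).
Chil3: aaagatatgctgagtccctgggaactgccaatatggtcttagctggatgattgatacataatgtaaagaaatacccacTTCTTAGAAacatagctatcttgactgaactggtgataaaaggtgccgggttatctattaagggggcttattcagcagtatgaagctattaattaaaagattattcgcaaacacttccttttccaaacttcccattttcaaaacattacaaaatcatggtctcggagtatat
Chil4: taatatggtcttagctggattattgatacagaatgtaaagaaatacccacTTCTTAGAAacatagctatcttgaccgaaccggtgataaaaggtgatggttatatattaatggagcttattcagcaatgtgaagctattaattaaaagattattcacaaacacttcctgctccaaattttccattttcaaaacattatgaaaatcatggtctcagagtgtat
Retnla: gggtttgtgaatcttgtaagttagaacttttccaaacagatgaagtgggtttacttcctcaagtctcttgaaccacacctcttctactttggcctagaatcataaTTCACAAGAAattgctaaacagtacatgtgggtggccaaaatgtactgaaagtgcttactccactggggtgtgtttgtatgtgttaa
Ccl17: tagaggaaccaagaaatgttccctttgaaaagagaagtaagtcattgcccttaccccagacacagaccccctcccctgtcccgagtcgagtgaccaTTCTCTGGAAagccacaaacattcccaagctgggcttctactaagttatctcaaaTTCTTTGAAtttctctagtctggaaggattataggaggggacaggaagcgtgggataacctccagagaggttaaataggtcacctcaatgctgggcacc
The motif TTCNNNGAA was matched by the same 9 letters in Chil3 and Chil4, 172 to 164 bases before each gene's start as given above, and Retnla held TTCACAAGAA, 87 to 78 bases before its start. Ccl17 held one match to each motif. Pdcd1lg2 held TTCCTCAGAA, and Mrc1 and Mgl2 held no match, so 5 of 7 members had at least 1. Over 32851 RefSeq promoters of up to 250 upstream bases, 12.4% held at least 1 match to either motif (7.02% to the shorter, 5.85% to the longer); each motif reads the same on both strands, and the motifs do not overlap in these 4 windows. A match is a description of the letters and not a binding site.

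Chil3 was the most abundant member, with a mean of 1737 ± 2431 FPKM (SD over 73 cells), and its mean ranked 29 among all gene rows. Its 12 alveolar-macrophage-like cells ran from 2267 to 8394 FPKM, with a median of 5552. The 6 interstitial-macrophage-like cells had 0 in 5 cells and 0.38 in the other, so Chil3 was detected in 0 of 6 (3 cells would make 50%). In the class II cluster, cells 37, 30 and 42 had 1404, 1355 and 382 FPKM, and cells 84 and 25 had 0.139 and 0.134. The 50 classical-monocyte-like cells ran from 0 to 7236 FPKM with a median of 52.4.

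The monocyte-like cells were spread over the whole scale. Chil3 was detected in 33 of the 50, and 16 of these stood at 1000 FPKM or more, 15 between 10 and 1000 and 2 between 1 and 10. The other 17 lay below 1, with 8 at 0. Of the 50 monocyte-like cells, 9 reached or passed the lowest alveolar-macrophage-like cell, so these clusters overlapped in level. Cell 73, 1 of the 9, also held 9 of 15 alveolar macrophage markers, and the rest of the 9 held 0. Within the monocyte-like cells, Chil3 showed little relation to depth (rho 0.02 over 50 cells). Among the 40 cells with at least 7 monocyte markers, 29 held Chil3, a share of 72.5%.

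**Figure D3:**
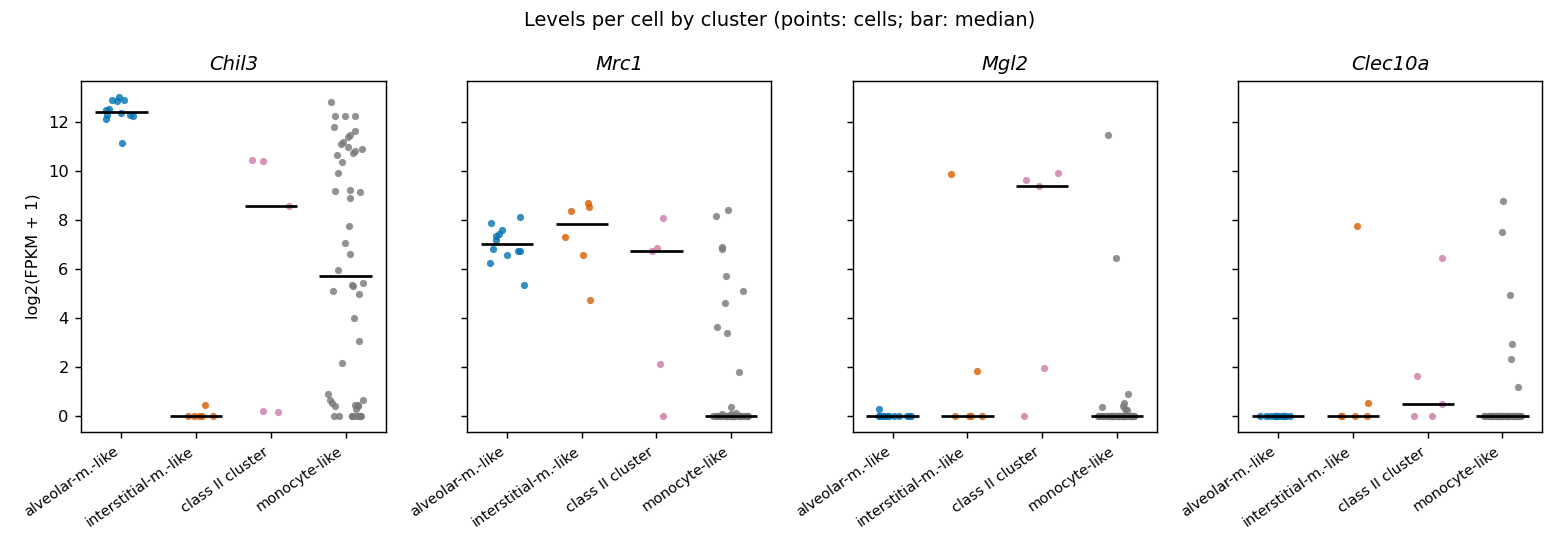
Levels of Chil3, Mrc1, Mgl2 and Clec10a as log2(FPKM + 1) in every cell (points) of the alveolar-macrophage-like (n = 12), interstitial-macrophage-like (n = 6), class II (n = 5) and classical-monocyte-like (n = 50) clusters, with cluster medians (bars). Chil3 is high in all alveolar-macrophage-like cells, below 1 FPKM in all interstitial-macrophage-like cells and spread over the whole scale in monocyte-like cells.

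Chil4 was near 0 beside Chil3. It lay above 0 in 18 cells and reached 1 FPKM in 3, all alveolar-macrophage-like, with a highest value of 1.86 FPKM in cell 17. Its values stood for 1 to 7 estimated fragments per cell, 41 in all, against 437538 for Chil3, which is 0.00937%. All 18 cells held Chil3 at 382 FPKM or more; of the 36 cells with Chil3 at that level or above, 18 had a Chil4 value above 0, and of the 37 cells below it, 0 had. Their longest protein-coding transcripts, 1539 bases each, were 94.4% identical over 1538 aligned bases, and 18.5% of all 50-base windows of one were found in the other. Chil4 is therefore reported as uncertain, because reads of the near copy can be assigned to it. Their upstream windows were 90.95% identical over 221 aligned bases.

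**Figure D4:**
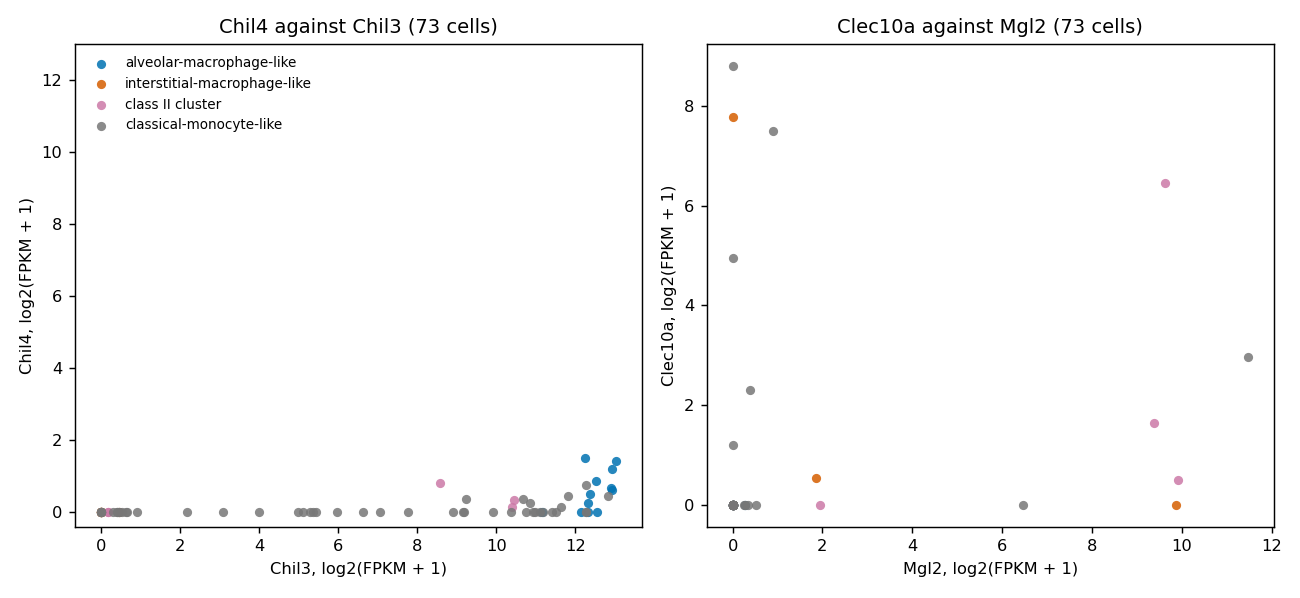
Levels of the neighbouring near copies in each of 73 cells as log2(FPKM + 1), Chil4 against Chil3 and Clec10a against Mgl2. Chil4 stays under 2 FPKM even where Chil3 is above 1000 FPKM. At 10 FPKM or more, Mgl2 is found in 6 cells, Clec10a in 5 and both in 1.

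Retnla was listed at 0 in all 73 cells; 3 cells, the limit set here on a count of 0, would make 4.11%, and the upper end of the exact interval is 4.93%. The 7 measured relatives on the list of chitinases and resistins, Chil1, Chil6, Chia1, Chit1, Retn, Retnlb and Retnlg, were also at 0 in every cell, and Chil5 had no row in the table. Among the chitinase-like and resistin-like genes measured, Chil3 was the only one found at more than trace level. Among all 23994 gene rows, 10805 (45.03%) were at 0 in all cells, so a gene at 0 is common in these data.

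Mrc1 encodes CD206, the mannose receptor, which takes up glycoproteins and microbes, and lies at chr2:14229392-14332057 on the plus strand. Every alveolar-macrophage-like cell (39.3 to 283 FPKM, median 129) and every interstitial-macrophage-like cell (25.4 to 414, median 246) held it. The class II cells 42, 84, 25, 30 and 37 had 269, 114, 106, 3.36 and 0 FPKM. Of the 50 classical-monocyte-like cells 10 held it, with a highest value of 343 FPKM in cell 83, and 36 were at 0. The alveolar- and interstitial-macrophage-like ranges overlapped for most of their length, and 5 of 50 monocyte-like cells reached the lowest alveolar-macrophage-like value. Without the 10 cells that held fewer than 7 monocyte markers, 6 of 40 monocyte-like cells held Mrc1, a share of 15%. Among these 6, cells 13, 73 and 75 also held 11, 9 and 8 of 15 alveolar macrophage markers.

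Set against the classical-monocyte-like cells, Chil3 and Mrc1 separated the macrophage-like clusters in different ways. In mean log2(FPKM + 1), alveolar-macrophage-like cells were higher for Chil3 by 6.51 (12.45 against 5.94) and for Mrc1 by 5.90 (7.01 against 1.10). Of the 10 members 4 were detected in the 8 cells that this comparison required, and 2 of the 4 were higher by more than 1, where 19.2% of the 6151 genes tested were; 0 of 4 were lower by more than 1, where 9.12% were. Mgl2 and Clec10a differed by -0.39 and -0.55 there. Interstitial-macrophage-like cells were higher for Mrc1 by 6.27 and for Mgl2 by 1.54 (2 of 4, where 13.4% of all genes tested were higher) and lower for Chil3, with a difference of -5.86 (1 of 4, where 16.2% were lower). The Mgl2 difference there rests on cell 32, at 939 FPKM: without it the difference is -0.043, and 1 of 4 members is higher. Mgl2 was detected in 8 cells, 2 of them in this cluster, and met the 8-cell requirement only with them. The 2 of 4 therefore cannot be weighed against the 13.4%. The class II cluster was higher for Mgl2 by 5.76, for Mrc1 by 3.66 and for Clec10a by 1.17 (3 of 4, where 31% of genes were higher), while Chil3 differed by 0.03, and 0 of 4 were lower, where 5.28% of genes were. Mgl2 and Clec10a were detected in 8 and 9 cells, 4 and 2 of them in the class II cluster. Both met the 8-cell requirement only with those cells, so the 3 of 4 cannot be weighed against the 31%. The Clec10a difference rests on cell 42 and is -0.017 without it, which leaves 2 of 4 higher, and the Chil3 difference ran from -1.10 to 1.47 as each of the 5 cells was left out. Its cells were deeper, with a median of 3219567 mouse fragments, against 1392943 in monocyte-like cells, and 4 of 8 housekeeping genes were also higher by more than 1 in it (Hprt not without cell 25 or cell 30); the part of depth in these differences was not tested.

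The pair was therefore joined in some cells and parted in others. Chil3 and Mrc1 were detected together in 22 cells, which is 45.8% of the Chil3 cells and 68.8% of the Mrc1 cells. All 12 alveolar-macrophage-like cells were among these 22, while all 6 interstitial-macrophage-like cells held Mrc1 without Chil3. That absence depended on the division, since with k-means 3 of 9 interstitial-macrophage-like cells held Chil3. Over all 73 cells the rank correlation of the levels was 0.09, and it was -0.04 within the 50 monocyte-like cells and 0.28 within the 12 alveolar-macrophage-like cells; cells share 1 animal and the values carry no test.

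**Figure D5:**
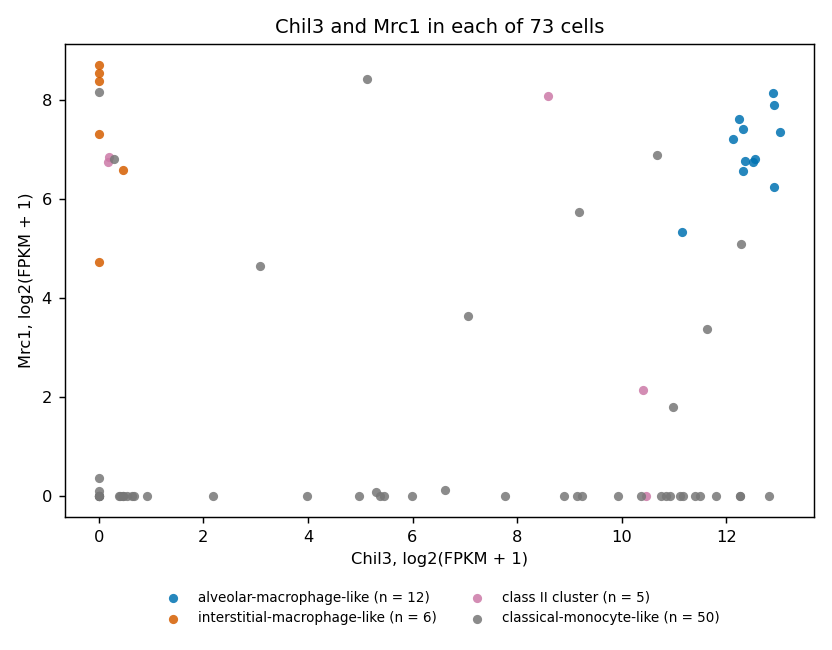
Mrc1 against Chil3 in each of 73 cells, both as log2(FPKM + 1), coloured by cluster. Alveolar-macrophage-like cells hold both genes, interstitial-macrophage-like cells hold Mrc1 with Chil3 below 1 FPKM, and most monocyte-like cells lie along the Chil3 axis with Mrc1 at 0.

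The genes whose levels ran most like the common pair were taken from 3959 genes detected in at least 15 cells, by Spearman's rho over the 73 cells. For Mrc1 these were Dab2 (0.83), which encodes an endocytic adaptor, Prune2 (0.67), Pdia4 (0.65), an enzyme of protein folding, Dhrs3 (0.65), a retinal reductase, and Bcl2a1b (0.65), a survival gene. Dab2 was detected in 27 cells and 26 of these held Mrc1. For Chil3 they were 1100001G20Rik (0.67), Hebp1 (0.60), which encodes a heme-binding protein, Ltc4s (0.60), the leukotriene C4 synthase, Ccl6 (0.58), a chemokine, and Ctsk (0.57), the protease cathepsin K. 1100001G20Rik and Ltc4s are also leading genes of the alveolar-macrophage-like cluster. The genes most unlike Mrc1 were Ifitm3 and Plac8, with rho of -0.68 and -0.67, and both lead the classical-monocyte-like cluster.

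Mgl2 and Clec10a encode the galactose-type lectins CD301b and CD301a, which bind galactose-type sugars. They are neighbours in mm10, Mgl2 at chr11:70130329-70137550 and Clec10a at chr11:70156197-70170834, both on the plus strand and 18646 bases apart. Their longest protein-coding transcripts were 84.1% identical over 1092 aligned bases, and 15.3% of the 50-base windows of Mgl2 occur in Clec10a, so low values of either are uncertain. Mgl2 was highest in cell 95, at 2845 FPKM, followed by cell 25 (962), cell 32 (939), cell 42 (788), cell 84 (669) and cell 64 (87.7), with cells 30 and 94 at 2.87 and 2.61. Clec10a was highest in cell 86, at 445 FPKM, followed by cell 65 (219), cell 63 (180), cell 42 (86.8) and cell 24 (30.1), with cells 95, 10, 84 and 31 between 1.29 and 6.76. At FPKM of 10 or more Mgl2 was found in 6 of 73 cells, Clec10a in 5 and both in 1, cell 42. Genes this rare share few cells even when unrelated, so these counts do not show that the lectins avoid each other. Both were detected together in 3 cells, which is 37.5% of the Mgl2 cells and 33.3% of the Clec10a cells.

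By cluster, Mgl2 was found in 0 of 12 alveolar-macrophage-like cells, 2 of 6 interstitial-macrophage-like cells, 4 of 5 class II cells and 2 of 50 classical-monocyte-like cells. The 2 monocyte-like cells were cells 95 and 64, which each held 3 of 10 monocyte markers. Cell 95 held Cd209a, a lectin of dendritic cells, at 4429 FPKM and H2-Aa, a class II chain, at 11420, and cell 64 held 11 of 15 alveolar macrophage markers. Without cells under 7 monocyte markers, Mgl2 was found in 0 of 40. Clec10a was found in 0 of 12 alveolar-macrophage-like, 1 of 6 interstitial-macrophage-like, 2 of 5 class II and 6 of 50 monocyte-like cells, and 5 of those 6 held at least 7 monocyte markers. Neither lectin was detected in the alveolar-macrophage-like cells, where 3 of 12 cells would make 25%.

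Class II genes accompanied Mgl2. H2-Aa was detected in 8 of 8 cells with Mgl2, against 17 of 65 cells without it, and Mrc1 was also detected in all 8. H2-Aa leads the class II cluster, in which 4 of the 8 cells lie. It is also a leading gene of the interstitial-macrophage-like cluster, in which cells 32 and 94 lie. These counts are therefore descriptions of the same cells. Cd209a was detected in 3 cells (63, 84 and 95), all of which also held Mrc1 and Clec10a.

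Arg1 encodes arginase 1, which splits arginine into ornithine and urea, and lies at chr10:24915221-24927484 on the minus strand. It was detected in cell 83 (1466 FPKM), cell 67 (1040), cell 42 (686), cell 76 (535) and cell 63 (319), and cell 34 had 0.39. The remaining 67 cells were at 0, so Arg1 was either below 1 FPKM or at 319 FPKM and above. Of the 5 cells, 4 were classical-monocyte-like and 1 was of the class II cluster, and 0 of 12 alveolar-macrophage-like cells held it. Among the 4 monocyte-like cells, 3 held at least 7 of 10 classical monocyte markers. Cell 83, with the highest Arg1, held 3 of 10. Mrc1 was detected in 4 of the 5 and Chil3 in 4 of the 5. Fn1, the fibronectin gene, was detected in 5 of 5, against 51 of the 68 cells without Arg1, Il1b in 5 of 5, against 57 of 68, and Il4ra in 2 of 5, against 18 of 68. Fn1 and Il1b were thus common in cells with and without Arg1.

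Other genes of arginine use were spread differently. Nos2, the nitric oxide synthase that competes for arginine, was at 0 in all 73 cells. Arg2, the mitochondrial arginase, was detected in 14 cells, all of which held Chil3 (14 of 48 cells with Chil3, against 0 of 25 without). Of the Arg2 cells 11 were classical-monocyte-like and 2 alveolar-macrophage-like, and cell 67 held both arginases, with Arg2 at 391 FPKM. After thinning every cell to 347003 mouse fragments, Arg2 was detected in 13 cells and Chil3 in all 13 of them. Slc7a2, a transporter of arginine, was higher in alveolar-macrophage-like than in monocyte-like cells by 2.65 in mean log2(FPKM + 1), and it was the only 1 of 6 tested arginine genes higher by more than 1 there, a share close to the 19.2% of all genes tested.

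The chemokines appeared as a few cells with very high levels. Ccl17 (chr8:94810453-94812036, plus strand) encodes TARC, a ligand of Ccr4 that attracts type 2 T cells. It stood at 7841 FPKM in cell 25, 1822 in cell 95 and 1.63 in cell 75 (2 estimated fragments), and at 0 in the other 70 cells. Cells 95 and 25 also had the highest and second highest Mgl2. Ccl24 (chr5:135569937-135573049, minus strand) encodes eotaxin-2, a ligand of the eosinophil receptor Ccr3. It stood at 2927 FPKM in cell 42, 2483 in cell 58, 1694 in cell 63 and 4.48 in cell 30. No cell held both chemokines, which says little for genes found in 3 and 4 of 73 cells. All 3 Ccl17 cells and all 4 Ccl24 cells held Mrc1. All 4 Ccl24 cells also held Chil3, against 1 of the 3 Ccl17 cells. Cell 25 also held Ccl22, another ligand of Ccr4, at 38.8 FPKM.

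Pdcd1lg2 (chr19:29410919-29471161, plus strand) encodes PD-L2, a ligand of the inhibitory T cell receptor encoded by Pdcd1. It was detected in cell 42 at 102 FPKM and in cell 58 at 1.21, both of which were Ccl24 cells. Its relative Cd274, which encodes PD-L1, was detected in 22 cells. The receptors Ccr3, Ccr8 and Pdcd1 were at 0 in all 73 cells, and Ccr4 stayed below 1 FPKM.

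The cell with most members, cell 42, carried Ccl24 at 2927 FPKM, Mgl2 at 788, Arg1 at 686, Chil3 at 382, Mrc1 at 269, Pdcd1lg2 at 102 and Clec10a at 86.8. It also held Il4ra at 24.4 FPKM, Dab2 at 584 and H2-Aa at 10004, with 7 of 10 classical monocyte markers. Cell 63 carried 5 members, Ccl24 at 1694 FPKM, Arg1 at 319, Clec10a at 180, Mrc1 at 23.8 and Chil3 at 7.47, with 9 of 10 monocyte markers and H2-Aa at 0. No doublet caller was run, and whether either cell held more than 1 cell's RNA was not tested. Without these 2 cells, Ccl24 remained in 2 of 71 cells (2.82%) and Pdcd1lg2 in 1 (1.41%), while Arg1 remained in 3 (4.23%). Cell 42 alone gave 98.7% of all Pdcd1lg2 FPKM, and cell 25 gave 81.1% of all Ccl17 FPKM.

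The upstream genes of the pathway were detected without the cytokines. Il4 and Il13 were at 0 in all 73 cells, as was the decoy receptor Il13ra2. The receptor chain Il4ra was detected in 20 cells (27.4%, 17.6 to 39.1), its partner Il13ra1 in 36, the common gamma chain Il2rg in 29, the kinase Jak1 in 57 and Stat6 in 30. Of the 20 Il4ra cells, 10 held Mrc1 and 13 held Chil3. Of the 19 other IL-4 and IL-13 pathway genes, 13 were detected in enough cells to compare with the classical-monocyte-like cells. In alveolar-macrophage-like cells 4 were higher by more than 1 (Pparg by 5.04, Il13ra1 by 1.99, Cebpb by 1.76 and Egr2 by 1.69) and 1 lower (Kdm6b, with -2.96), where 19.2% of all genes tested were higher and 9.12% lower, and the median over the 13 was -0.40 against 0.13 over all genes. In interstitial-macrophage-like cells 0 were higher and 6 lower, among them Klf4 with -2.40 and Stat6 with -1.83, where 13.4% of all genes were higher and 16.2% lower, and the medians were -0.34 and -0.21. One of the 6, Cish, was no longer lower by more than 1 without monocyte-like cell 34 or 59. In the class II cluster 4 were higher, a share close to the 31% of all genes, and 1 was lower, where 5.28% were, with medians of 0.13 and 0.39; without cell 25 Stat6 was no longer among the 4. Pparg, a lipid-sensing nuclear receptor that alveolar macrophages need, was detected in 13 cells, all of which held Chil3. As an alveolar macrophage marker it was not left out of the clustering, so its difference is not independent of the clusters.

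Of 18 other genes tied to alternative activation, 17 had a row and 8 could be compared. In alveolar-macrophage-like cells 5 were higher by more than 1, among them the scavenger receptor Cd36 by 4.09, Cd274 by 2.74, the beta-glucan receptor Clec7a by 2.40 and the interleukin 1 receptor antagonist Il1rn by 2.37, and 2 were lower, Fn1 with -2.40 and Msr1 with -1.69, against 19.2% of all genes higher and 9.12% lower. In interstitial-macrophage-like cells 1 was higher, the lipid receptor Trem2 by 3.90, and 5 were lower, with Fn1 at -4.72. Of all genes, 13.4% were higher and 16.2% lower. Trem2, an interstitial macrophage marker, was not left out of the clustering, so its difference is not independent of the clusters. Tgm2, 1 of the 5, differed by -1.07, and by -0.83 to -1.58 as each interstitial-macrophage-like cell was left out in turn. In the class II cluster 2 were higher, below the 31% of all genes, and 1 was lower, against 5.28%; that gene, Fn1, differed by -0.78 without cell 25. Of the 5 classical activation genes compared, alveolar-macrophage-like cells were higher for 1, Tnf by 3.11, and lower for 3, with Il1b at -5.80, where 19.2% of all genes were higher and 9.12% lower. The chitinase and resistin list had 0 genes to compare, and the list of receptors for the members' products had 1, Cd80.

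Apart from Chil4 and Pdcd1lg2, the number of cells with each member moved little when all cells were brought to 1 depth. After thinning to 347003 mouse fragments per cell, Chil3 was detected in 50 cells, Mrc1 in 32, Clec10a in 9, Mgl2 in 8, Arg1 in 5, Ccl24 in 4, Ccl17 in 3 and Pdcd1lg2 in 1. The cells that carry the rare genes mostly held them well above the detection limit, which thinning did not remove. Chil4, which rests on 1 to 7 fragments, was detected in 6 cells after thinning, since a single fragment then weighs more. At least 3 of 8 endothelium markers reached FPKM of 10 in cells 2 and 54 only, which held 0 members each. At FPKM of 1 or more, cell 38 held 3 of the 8 and cells 57 and 67 held 1 each. Those cells did hold members, such as Mrc1 in cell 38 and Arg1 in cell 67.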

How the data were processed

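Single-cell RNA-seq of 73 cells from 1 mouse was analysed, 1 library per cell. FPKM values were deposited by the authors; CASAVA 1.8, TopHat2 2.1.0, Cufflinks 2.2.1, Cuffnorm and the build mm10 are named per the submitters' processing notes. Annotation and strand handling are not given in the sources used here. A second deposited table holds a signal, namely fragment counts that had been divided by a factor per cell. Of 100075 values between 0.5 and 20 times the smallest step of their cell, 99.6% were whole to within 0.1 of that step, and division by it gave estimated fragments. No count model was fitted. All 100 spike-in rows were removed, and columns were matched to cells by the number in the title.

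Levels were compared as log2(FPKM + 1), which understates differences of low genes, among genes detected in at least 8 cells, and a difference over 1 was counted. Clusters came from 1000 variable genes, without 79 listed genes, through 10 principal components and Ward's method (2 to 6 clusters, highest mean silhouette with at least 5 cells each, here 0.253). A name needed 3 of 10 leading genes to be markers of 1 type, and a cluster whose only such markers were class II genes stayed unnamed. Without that exception, added after seeing the data, the class II cluster would be called dendritic-cell-like. Intervals are exact Clopper-Pearson at 95%, and for a count of 0 the text gives the share that 3 cells would make. Genes named are the members, the listed pathway and marker genes, cluster leaders, and the 5 most like each member found in at least 15 cells; the genes most unlike Mrc1 and the cells described singly were chosen after their values were seen. The members, lists and settings were chosen with earlier results of these data known. Doublets were not called. The scripts were tested on simulated data.

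Settings tried were other detection thresholds, fragments in place of FPKM, thinning, a pseudocount of 0.1, other numbers of genes and components, k-means, and leaving out cells. Python 3.11.15, NumPy 2.4.6, pandas 2.3.3, SciPy 1.17.1, scikit-learn 1.9.0, Biopython 1.88 and matplotlib 3.10.9 were used.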

Additional observations from a re-analysis of the deposited data

How the results depend on the processing

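Of 180 values recomputed under other settings, 165 kept within their exact binomial interval or on their side of a difference of 1, 13 did not and 2 reversed. Some of the 165 could hardly change, such as Retnla at 0 and alveolar-macrophage-like shares of the same 12 cells. Intervals of small clusters are wide, so Chil3 in 3 of 9 against 0 of 6 interstitial-macrophage-like cells counted as kept. The tally is therefore no measure of stability. Counting any FPKM above 0, or 1 estimated fragment or more, gave the same shares: 82.2% of cells with Chil3, 24.7% with Chil4, 20.5% with Mgl2, 94.5% with at least 1 member and 63.01% with at least 2. At FPKM of 10 or more Chil4 was found in 0% of cells. Leaving out classical-monocyte-like cells with fewer than 7 markers, chosen after seeing the data, put Mgl2 at 0% of that cluster. Leaving out 1 cell, also chosen after seeing the data, turned the Mgl2 difference of the interstitial-macrophage-like cluster to -0.043 (without cell 32) and the Clec10a difference of the class II cluster to -0.017 (without cell 42), and put its Chil3 difference at 1.47 (without cell 25). The 12 alveolar-macrophage-like cells were found under every setting that gave a division. The interstitial-macrophage-like cluster appeared with 500 variable genes (6 cells) and with k-means (9 cells). With k-means 3 of its 9 cells held Chil3 (33.3%), against 0 of 6 as reported. The cluster was merged into others with 2000 genes, 5 or 20 components or a pseudocount of 0.1, so values for it rest on the chosen division. The cluster led by class II genes also depended on it, with 8 cells for 500 genes, 11 for 5 components and none with 20 components or a pseudocount of 0.1. In those 2 settings Mgl2 was found in 13.1% of monocyte-like cells, against 4% as reported, and Mrc1 in 32.8%, against 20%. With no filter on low genes no division met the minimum size, so no values came from it. No paired analysis was possible because all cells form 1 group. Values limited by depth are those of Chil4, of low Mgl2 and Clec10a, and of genes at 0.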
